A study of Mus musculus with 10 samples.

Results

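The contractile genes described here were 10 genes named by symbol and found through their Ensembl identifiers among the 21792 genes with a value in every mouse: Acta2, Actg2, Tagln, Tpm2, Cnn1, Lmod1, Myh11, Myl9, Des and Myocd. The rule that names them uses no measured value, though they were chosen with earlier results of these data known. They were followed in renal cortex of 4 sham mice injected with PBS and of 6 mice with aristolochic acid nephropathy (AAN), given aristolochic acid by a single intraperitoneal injection at 5 mg/kg. All mice were wild-type C57BL/6 males aged 8 weeks by the study's methods, and the cortex was taken at day 28. Each mouse gave its own RNA-seq library, named here by the tag in its label (sham B607, B634, B636 and H249, AAN A483, B614, B630, B639, B642 and B666). Values are FPKM (fragments per kilobase of exon per M mapped fragments), so that levels can be ordered between genes of different length. The depth recovered from the values was 15.8 to 17.5 M fragments in the sham libraries and 13.4 to 16.5 M in the AAN libraries. The mitochondrially encoded genes took between 39.5% and 61.4% of the summed FPKM in sham mice, against 21.4% to 55.0% in AAN mice. Scaling the mice to the same total without these genes left the changes of Tagln and Acta2 at 2.56 and 1.17 on the log2 scale, against 2.54 and 1.15 without it.

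Smooth muscle cells contract when myosin pulls on actin filaments, and their contractile gene programme is switched on through serum response factor (SRF), which binds CArG boxes in DNA and works with the coactivator myocardin or with the myocardin-related factors MRTF-A and MRTF-B. In the healthy kidney cortex this programme belongs mainly to the walls of arteries and arterioles, with parts of it in pericytes and mesangial cells. In fibrosis, fibroblasts and pericytes become myofibroblasts, which gain α-smooth muscle actin (Acta2) and secrete matrix, and of the late smooth muscle genes Myh11 is the one usually taken to mark mature smooth muscle cells. Aristolochic acid is a plant toxin taken up by the proximal tubule that leads to tubulointerstitial fibrosis. In whole cortex RNA, fewer cells of a type and less RNA of a gene per cell cannot be told apart.

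Promoter DNA is shown for Myl9, which held an exact CArG box, and for Acta2, which held boxes with 1 core base other than A or T. Whether SRF binds any of them was not tested. These members stand on both sides of the 2-fold limit used below. RefSeq promoters (GRCm38.p6, from 250 bases before to 50 bases after the start that RefSeq gives) were at hand for Acta2, Cnn1, Des, Myl9, Tpm2 and Lmod1, 6 of the 10 members. For Acta2 and Myl9 this start lies inside the gene as GENCODE places it (positions below). An exact CArG box is a pair of C, then 6 bases that are A or T, then a pair of G. It is searched on both strands at once because it reads the same way on either. Myl9 carried an exact box 161 bases before its RefSeq start and a box with 1 core base other than A or T 99 bases before it. Acta2 carried boxes of the latter kind 84 and 34 bases before its RefSeq start, both inside the gene as GENCODE places it. The looser search was added after the exact search had been seen. The Acta2 window is chr19:34255324-34255623 on the minus strand and the Myl9 window is chr2:156775214-156775513 on the plus strand, each printed 5′ to 3′ along its gene with the boxes in capitals.
Acta2: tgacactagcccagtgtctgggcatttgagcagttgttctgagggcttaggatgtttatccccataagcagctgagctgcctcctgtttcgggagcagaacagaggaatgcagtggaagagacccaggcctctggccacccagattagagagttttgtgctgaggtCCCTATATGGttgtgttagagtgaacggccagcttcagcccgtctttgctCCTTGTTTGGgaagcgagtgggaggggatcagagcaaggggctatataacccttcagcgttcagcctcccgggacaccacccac
Myl9: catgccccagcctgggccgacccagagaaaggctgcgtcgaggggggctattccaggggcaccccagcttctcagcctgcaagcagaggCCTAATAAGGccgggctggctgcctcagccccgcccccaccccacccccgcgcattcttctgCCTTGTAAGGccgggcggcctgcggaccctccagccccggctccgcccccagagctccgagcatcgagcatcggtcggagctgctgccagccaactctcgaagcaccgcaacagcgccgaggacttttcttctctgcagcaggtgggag
Neither form was found in the windows of Cnn1, Des, Tpm2 or Lmod1, which says only that these letters are not there. Of all 32851 promoters, 1.63% held an exact box and 9.98% a box with at most 1 core base free.

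The contractile genes changed to unequal extents. In AAN, Tagln rose 5.80-fold and Des 5.10-fold, Tpm2 and Acta2 rose by smaller amounts, Actg2 was called higher from a few fragments, and Myh11, Cnn1 and Lmod1 did not pass the test in either direction. Changes were fitted with limma on log2(FPKM + 0.1), in which form the folds are given, over the 17129 genes whose mean reached 0.1 FPKM, and a gene was called at a Benjamini-Hochberg adjusted p of at most 0.05 and a change of at least 2-fold. Of the 9 members that reached this mean, 5 were called higher and 0 lower. Myocd did not reach it and was not tested. Actg2 reached it through the AAN mice alone, which favours its call, and 4 of the other 8 members were called higher. Among all genes tested, 35.8% were called higher and 3.43% lower, and the median log2 change was 0.75, against 1.15 for the 9 members. Every AAN mouse was above every sham mouse in Tagln, Des and Myl9, a pattern seen in 40.3% of all genes tested. The listed values of Actg2 were also apart, but the nearest mice of the groups, sham H249 and AAN B614, both had at most 1.77 fragments. Their levels were not separable at this depth, so Actg2 is not counted here. No member had every AAN mouse below every sham mouse, a pattern seen in 3.25% of all genes tested.

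**Figure D1:**
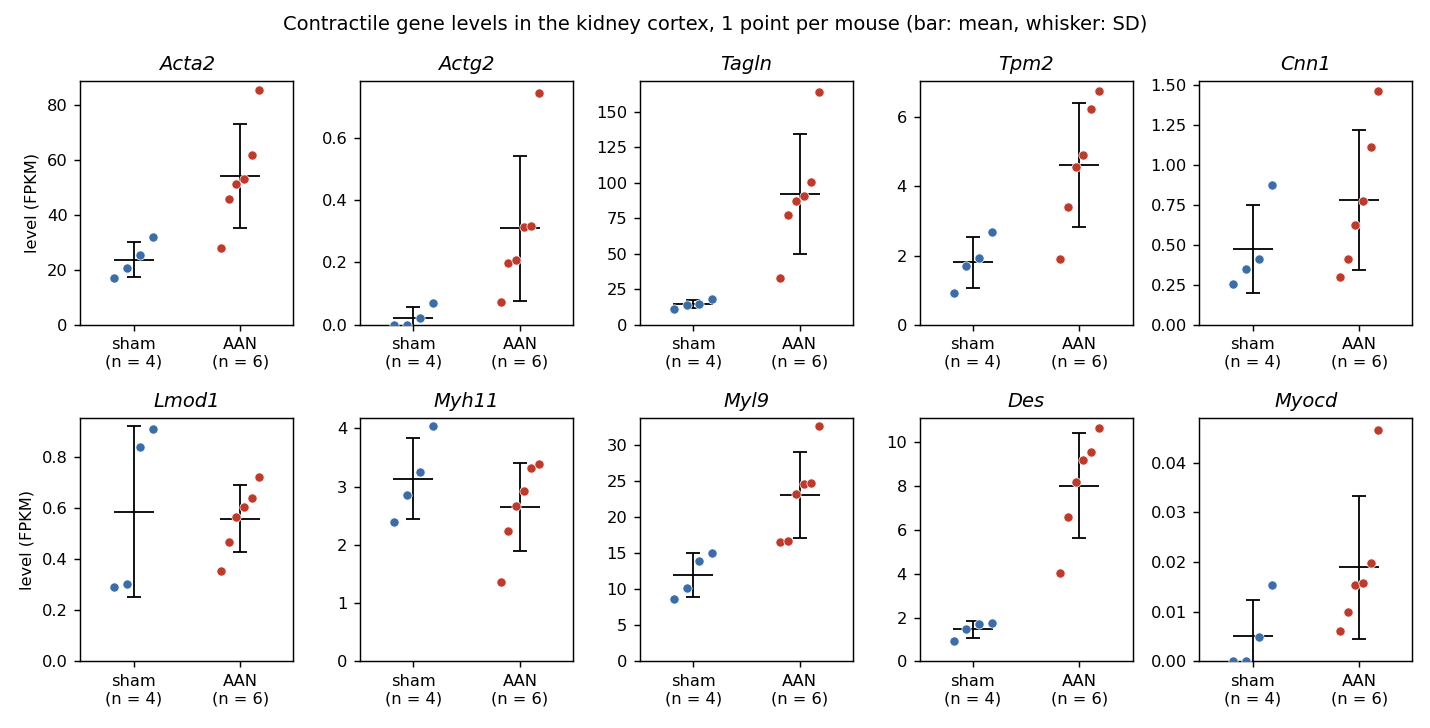
Level of each contractile gene in FPKM on linear axes that start at 0, with 1 point per mouse, a bar for the group mean and whiskers for the SD (4 sham mice in blue, 6 AAN mice in red). The groups are apart for Tagln, Des and Myl9, and for Actg2 only by a gap that the depth cannot resolve. The AAN mice lie within or below the sham range for Lmod1 and Myh11.

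Acta2 (ENSMUSG00000035783, chr19:34241090-34255590, minus strand, positions here and below on GRCm38 as annotated by GENCODE) encodes α-smooth muscle actin, the thin filament protein used to stain myofibroblasts. Its level was 16.9, 20.8, 31.8 and 25.4 FPKM in sham B607, B634, B636 and H249. In the AAN mice it was 27.8 FPKM at the lowest, 52.1 at the median and 85.2 at the highest. The lowest AAN mouse, B614, lay below the highest sham mouse, B636, and the other 5 AAN mice lay above all sham mice. The log2 change was 1.15 ± 0.28 (SE, limma, adjusted p = 0.00404), which is 0.40 above the median of all genes tested. This call rested on its margin over 2-fold, since without sham B607 the change was 0.999, just under the limit, and the median of ratios rescaling between mice brought it to 0.39 (adjusted p = 0.315).

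Actg2 (ENSMUSG00000059430, chr6:83512905-83536265, minus strand), the enteric form of smooth muscle γ-actin, was at the edge of detection. It was listed at 0 in sham B634 and B636, at 0.0217 FPKM in B607 and at 0.0691 in H249. The 6 AAN mice had 0.0725 to 0.745 FPKM with a median of 0.26, all above the sham mice. Given the gene's exonic length, these levels amount to at most 1.77 fragments in any sham mouse and to between 1.77 and 18.9 in the AAN mice, and a count of 0 allows up to 3 fragments. The fitted log2 change of 1.60 ± 0.39 (adjusted p = 0.00395) follows from the pseudocount and was 0.34 with a pseudocount of 1 and 3.53 with 0.01, so no fold is given. Acta2, Actg2 and the striated muscle actins Acta1 and Actc1 encode nearly identical proteins, and whether reads shared among them bear on these low values was not tested.

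Among the genes of proteins that bind the actin filament, Tagln had a larger change than Tpm2, Cnn1 or Lmod1. Transgelin, also called SM22α, is a small actin-bundling protein of the calponin family. Tagln (ENSMUSG00000032085, chr9:45929619-45936058, minus strand) stood at 11.2, 13.8, 18.1 and 14.9 FPKM in sham B607, B634, B636 and H249. The AAN mice reached 32.9 FPKM in B614, 77.4 to 101 in the 4 mice between and 164 in B666. No mouse of one group fell in the range of the other. The change was 2.54 ± 0.35 on the log2 scale (limma, adjusted p = 7.70e-05), more than 91.0% of all genes tested, and it was 1.77 with the median of ratios and 2.24 with quantile normalization, called under both. The gene overlaps Pcsk7 in the annotation, and how shared fragments or strand were counted is not given in the sources used here.

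Tpm2 (ENSMUSG00000028464, chr4:43514711-43523765, minus strand), or β-tropomyosin, lies along the actin filament and gates the access of myosin. The sham mice had 0.903, 1.92, 2.68 and 1.70 FPKM in the same order. The AAN mice ranged from 1.90 FPKM in B614 through a median of 4.72 to 6.75 in B666. As for Acta2, B614 alone lay within the sham range. Tpm2 was called higher, at 2.45-fold with an SE of 0.36 on the log2 scale (limma, adjusted p = 0.00862). Its log2 change was 0.56 (adjusted p = 0.278) with the median of ratios and 0.33 (adjusted p = 0.516) with quantile normalization. With a pseudocount of 1 it was 0.97, just under the 2-fold limit.

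Calponin 1 and leiomodin 1, both late markers of contractile smooth muscle, gave no call with the deposited values. Cnn1 (ENSMUSG00000001349, chr9:22099216-22109630, plus strand), an inhibitor of actin-activated myosin ATPase, was at 0.410, 0.346, 0.872 and 0.256 FPKM in the sham mice and at 0.296 to 1.46 FPKM in the AAN mice, with a median of 0.701. Only A483 and B666 exceeded the highest sham mouse, and the log2 change was 0.58 ± 0.41 (limma, adjusted p = 0.234). It was 0.38 without AAN A483, 0.87 without sham B636 and 0.19 in mice with B tags. Lmod1 (ENSMUSG00000048096, chr1:135324807-135368065, plus strand), which nucleates actin filaments in smooth muscle, was at 0.839, 0.304, 0.908 and 0.292 FPKM in the sham mice. All 6 AAN mice, at 0.353 to 0.723 FPKM, fell between the lowest and the highest sham mouse. Lmod1 has 1 annotated transcript, so its values could be turned back into fragments: 58, 19, 59 and 19 in the sham libraries and 22 to 47 in the AAN libraries, each within 0.08 of a whole number. The sham mice thus fell into a higher and a lower pair. The fitted change of 0.06 ± 0.32 (adjusted p = 0.889) turned negative without sham B634, sham H249 or AAN A483, with the median of ratios and with quantile normalization, where it was called lower (-1.15, adjusted p = 0.00817), and stayed above 0 at 0.074 with the same total without mitochondrially encoded genes.

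Neither gene of the myosin motor was called. Myh11 (ENSMUSG00000018830, chr16:14194535-14291372, minus strand), the smooth muscle myosin heavy chain, stood at 3.25, 2.40, 4.05 and 2.86 FPKM in the sham mice. In the AAN mice it was 1.36 FPKM at the lowest, 2.80 at the median and 3.38 at the highest. AAN B642 and B666 lay below all sham mice, and none lay above them. The log2 change was -0.27 ± 0.26 (limma, adjusted p = 0.373), which stands at percentile 11.7 of all genes tested. It was -0.10 without AAN B642 and -0.14 without sham B636. The median of ratios gave a change of -1.01 (adjusted p = 0.00815) and quantile normalization one of -1.15 (adjusted p = 0.00604), and Myh11 was called lower under both. Myl9 (ENSMUSG00000067818, chr2:156775420-156781658, plus strand), the regulatory light chain whose phosphorylation starts contraction, is also expressed outside smooth muscle. It had 10.2, 15.1, 8.68 and 13.9 FPKM in the sham mice and 16.6 to 32.5 FPKM in the AAN mice, with a median of 23.9. Every AAN mouse lay above every sham mouse, but the log2 change of 0.94 ± 0.23 (adjusted p = 0.00389) stayed under the 2-fold limit. The limit was passed without sham B634, sham H249, AAN B614 or AAN B630, with changes of 1.02 to 1.06. The median of ratios lowered it to 0.18 (adjusted p = 0.566) and quantile normalization to 0.45 (adjusted p = 0.119).

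Des (ENSMUSG00000026208, chr1:75360329-75368579, plus strand) encodes desmin, the intermediate filament of muscle cells, found in the kidney in mesangial cells, pericytes and vessel walls. Its level was 0.930, 1.46, 1.76 and 1.68 FPKM in sham B607, B634, B636 and H249. The AAN mice had 4.02 FPKM in B614, a median of 8.66 and 10.6 in B666. The groups were far apart, with the lowest AAN mouse above the highest sham mouse. The log2 change was 2.35 ± 0.28 (limma, adjusted p = 1.99e-05), and it was 1.62 with the median of ratios and 1.41 with quantile normalization, called under both.

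Myocd (ENSMUSG00000020542, chr11:65176561-65269989, minus strand), the gene of myocardin, could not be assessed at this depth. It was listed at 0 in sham B607 and H249, at 0.0154 FPKM in B634 and at 0.00494 in B636, and the AAN mice had 0.00607 to 0.0466 FPKM. These values are at most 1.57 fragments in a sham mouse and 4.70 in an AAN mouse, and only AAN B614 exceeded what 3 fragments would give. No fold is given.

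The scaling between mice decided how the 9 tested members split. With the FPKM as deposited, 91.2% of all calls were increases, and 5 members were called higher and 0 lower. The median of ratios moved the median change of all genes to 0.05, left 63.8% of calls as increases and gave 3 members higher (Tagln, Des and Actg2) and 1 lower (Myh11), where 18.8% of all genes were higher and 10.7% lower. Quantile normalization moved the median to -0.12, left 54.4% of calls as increases and gave 2 members higher (Tagln and Des) and 2 lower (Myh11 and Lmod1), where 14.4% of all genes were higher and 12.1% lower. Rescaling to the same total without the mitochondrially encoded genes gave the same 5 members as the deposited values. Tagln and Des were called higher, and Myh11 had a change below 0, under all of these scalings.

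**Figure D2:**
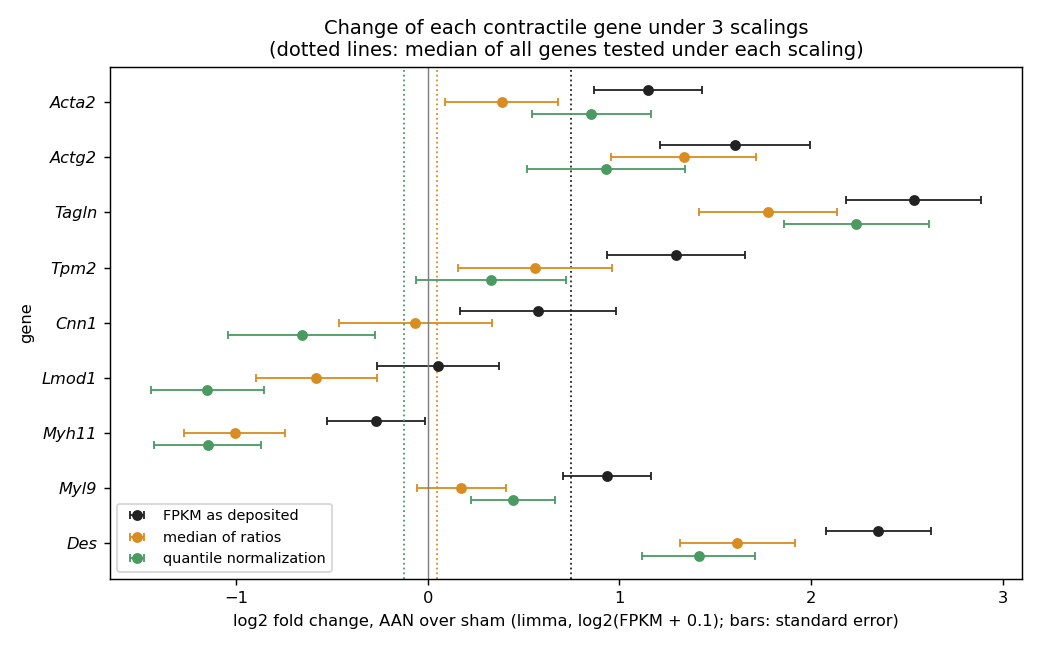
Log2 change of the 9 tested contractile genes in AAN over sham with its standard error, for the FPKM as deposited (black), after median of ratios rescaling (orange) and after quantile normalization (green), with the median of all genes tested as dotted lines. Tagln at 2.54, 1.77 and 2.24 and Des at 2.35, 1.62 and 1.41 stay right of their dotted line, and Myh11 at -0.27, -1.01 and -1.15 stays left of it.

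Differences between a pair of genes within the same mouse do not depend on the scale of that mouse, apart from the pseudocount and quantile normalization. They were computed on log2(FPKM + 0.1) for 8 pairs and given a two-sided exact permutation test over all 210 ways to split the mice. This test can reach a p of 0.00476, and Benjamini-Hochberg adjustment was made over the 8 pairs. The pairs were chosen with earlier results of these data known, which favours small p-values. Tagln and Myh11 had the largest and the smallest change of the tested members (2.54 and -0.27). The p of that pair is therefore not independent of the changes given above. Tagln exceeded Myh11 by 2.18 ± 0.31 (SD, n = 4) in sham mice and by 4.98 ± 1.07 (SD, n = 6) in AAN mice. Every AAN mouse had the larger gap, and the difference between the groups was 2.80 ± 0.46 (SE, exact p = 0.00476, adjusted p = 0.00952). The gap of Acta2 over Myh11 was 2.34, 3.06, 2.94 and 3.11 in the sham mice and 3.03 to 5.19 in the AAN mice. Only B614 lay within the sham range, and the groups differed by 1.42 ± 0.38 (exact p = 0.0286, adjusted p = 0.0327). This p exceeded 0.05 when any 1 of the 4 sham mice was left out (0.0595 to 0.0714). In FPKM, Acta2 was 5.21 to 8.89 times Myh11 in sham mice and 8.40 to 39.1 times in AAN mice.

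Desmin rose relative to actin with little spread. Des minus Acta2 was -4.04, -3.74, -4.10 and -3.84 in the sham mice and -2.99 to -2.52 in the 6 AAN mice. The groups did not overlap and differed by 1.20 ± 0.11 (SE, exact p = 0.00476, adjusted p = 0.00952), or by 0.72 with a pseudocount of 1. Myh11 fell relative to the endothelial adhesion gene Pecam1, from -0.64 ± 0.32 (SD, n = 4) to -1.84 ± 0.44 (SD, n = 6), with every AAN mouse lower (difference -1.20 ± 0.24, exact p = 0.00476, adjusted p = 0.00952). Pecam1 was among the endothelial markers with the larger changes (0.93), Kdr had the same change as Myh11 (-0.27), and Flt1, Emcn and Tek had changes of -0.02, 0.19 and 0.22. The fall was measured against Pecam1 and was not tested against the other endothelial markers.

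Acta2 itself was outpaced by Actb and by Col1a1. Against Actb, cytoplasmic β-actin, Acta2 stood at -2.22 ± 0.42 (SD, n = 4) in sham mice and at -3.01 ± 0.37 (SD, n = 6) in AAN mice, a difference of -0.79 ± 0.26 (SE, exact p = 0.00952, adjusted p = 0.0152) without overlap. Against Col1a1, the α1 chain of type I collagen, Acta2 stood at 2.55 to 3.62 in the sham mice and at -0.46 to -0.02 in the AAN mice. The groups differed by -3.26 ± 0.24 (SE, exact p = 0.00476, adjusted p = 0.00952), so that the order of both genes was reversed in every AAN mouse. Against Pdgfrb, the PDGF receptor of pericytes and fibroblasts, the difference was -0.63 ± 0.28 (SE, exact p = 0.0143, adjusted p = 0.0190) with overlapping groups, and its exact p was 0.0714 without sham B636. Pdgfrb had the largest change of the pericyte and mural markers, Mcam and Cspg4 also had larger changes than Acta2 (1.66 and 1.56), Rgs5 and Notch3 had changes near that of Acta2 (1.08 and 1.15), and those of Kcnj8, Ren1 and Abcc9 lay below it at -0.03, -0.13 and -0.42. The difference between Acta2 and Actg2 did not pass the test (-0.45 ± 0.29, exact p = 0.105, adjusted p = 0.105). This pair cannot be read as a change, because Actg2 had at most 1.77 fragments in any sham mouse. The pseudocount set the sign of the difference, 0.78 with a pseudocount of 1 and -2.38 with 0.01.

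**Figure D3:**
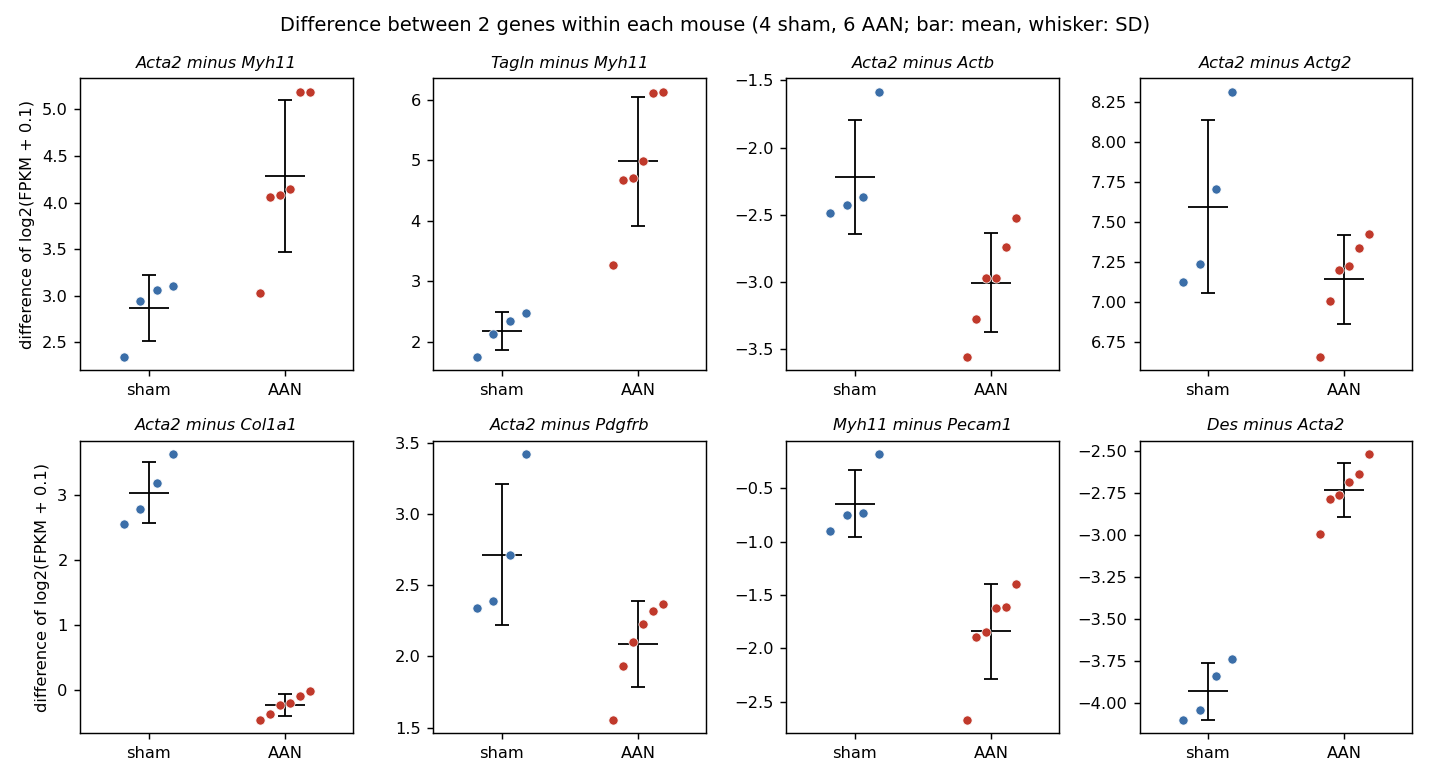
Difference of log2(FPKM + 0.1) between the named genes within each mouse for the 8 pairs, with 1 point per mouse, a bar for the mean and whiskers for the SD (4 sham mice in blue, 6 AAN mice in red). The groups are apart for Tagln minus Myh11, Acta2 minus Actb, Acta2 minus Col1a1, Myh11 minus Pecam1 and Des minus Acta2, and overlap in the other panels.

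The order of levels among the 10 genes differed between the groups. In sham mice it ran, by mean FPKM, Acta2, Tagln, Myl9, Myh11, Tpm2, Des, Lmod1, Cnn1, Actg2 and Myocd. In AAN mice it ran Tagln, Acta2, Myl9, Des, Tpm2, Myh11, Cnn1, Lmod1, Actg2 and Myocd. Acta2 exceeded Tagln in 4 of 4 sham mice and Tagln exceeded Acta2 in 6 of 6 AAN mice. The ratios given here between genes were chosen after the values were seen, and that of Tagln to Acta2 in FPKM lay between 0.571 and 0.663 in sham mice and between 1.18 and 1.92 in AAN mice. Myh11 went from rank 4 to rank 6. Des was under Myh11 in every sham mouse (0.287 to 0.610 of it) and above it in every AAN mouse (1.21 to 6.76 times). Neighbours whose order was not kept in every mouse were Tagln and Myl9, Tpm2 and Des, Lmod1 and Cnn1, and Actg2 and Myocd in sham mice, and Tpm2 and Myh11, Cnn1 and Lmod1, and Lmod1 and Actg2 in AAN mice.

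The AAN mice were not alike in these genes, in a comparison of single mice made after their values were seen. B614 had the lowest level of Acta2, Tagln, Cnn1, Des, Tpm2 and Actg2, 6 of the 9 members tested, and B666 the highest of Acta2, Tagln, Des, Myl9, Tpm2 and Actg2. B614 also had the lowest summed fibroblast and myofibroblast marker level of the AAN mice (187 FPKM, against 340 to 484 in the others) and the highest summed proximal tubule marker level (2197 FPKM, against 695 to 1056). Among sham mice, B636 was highest in 7 of the 9 members and lowest in Myl9. Without B614 the same 5 members and Myl9 were called higher. Over all 10 mice, after the group mean was taken from each value, the genes most like Acta2 among the 12240 averaging 1 FPKM or more were Mpg (Pearson r = 0.96), Tipin (0.96), B9d2 (0.94), Tagln (0.94) and Des (0.94), with Tpm2 at 0.94. Myl9 had an r of 0.35 to Acta2 and Myh11 one of -0.14. The genes most like Myh11 were Myo19 (0.96), Zdhhc17 (0.96), Adcy6 (0.93), Zfp59 (0.91) and Ptpdc1 (0.91). The points of each r come from the same 10 libraries and share their depth and scale.

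Within their families, Actb, Cnn2 and Tpm4 took larger mean shares of the summed FPKM in AAN mice, and Actg1, Cnn3 and Tpm3 smaller ones. These shares were computed after the values were seen and carry no test. Acta2 made up 11.9% ± 3.97 of the 6 actins in sham mice (SD, n = 4) and 9.27% ± 2.18 in AAN mice (SD, n = 6), with overlapping groups, while Actb went from 53.9% ± 6.84 to 73.3% ± 7.14 without overlap and Actg1 from 34.2% to 17.3% with overlap. Of the calponins, Cnn1 went from 3.79% to 1.34% with overlapping groups, the widely expressed Cnn2 from 30.1% to 69.5% and Cnn3 from 66.1% to 29.2%, both without overlap. Of the tropomyosins, Tpm2 went from 5.95% to 2.43% with overlapping groups and Tpm4, a non-muscle form, from 76.9% to 88.5% and Tpm3 from 11.1% to 4.56%, both without overlap. The mean shares of Actg2, Acta1 and Actc1 were at most 0.0615% each.

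**Figure D4:**
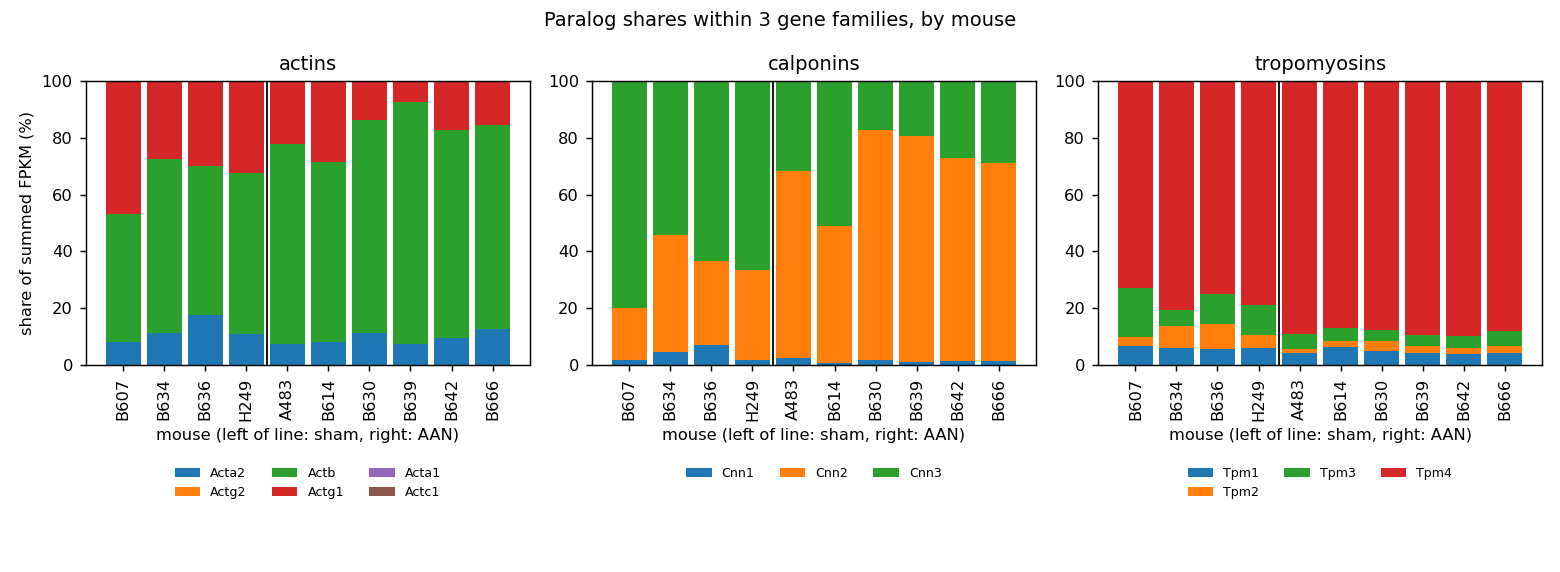
Share of the summed FPKM of the actins, calponins and tropomyosins taken by each paralog, as stacked bars from 0% to 100% for each mouse, with sham mice left of the black line and AAN mice right of it. Actb, Cnn2 and Tpm4 take larger shares in every AAN mouse than in any sham mouse, and Actg2, Acta1 and Actc1 are too low to be seen.

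Other genes of the contractile apparatus were read against all genes tested, of which 35.8% were called higher and 3.43% lower. Of 20 further contractile and cytoskeletal genes, all tested, 12 were called higher and 0 lower, with a median log2 change of 1.10 (0.75 for all genes). Synpo2 and Synm reached the mean of 0.1 FPKM through the AAN mice alone, and 11 of the other 18 were called. With a pseudocount of 1 the count was 7. Cnn2 had the largest change, 3.26 ± 0.23 (limma, adjusted p = 4.23e-07), from 3.88 to 38.9 FPKM. Tns1, which encodes the focal adhesion protein tensin 1, had the smallest, -0.27 ± 0.29 (adjusted p = 0.433). The most abundant, the myosin light chain gene Myl6, averaged 439 FPKM in sham mice, 656 FPKM in AAN mice, and did not pass the 2-fold limit (change 0.56, adjusted p = 0.0289). With the median of ratios 5 of these genes were higher and 1 lower, and with quantile normalization 6 and 0, against 18.8% and 10.7%, and 14.4% and 12.1%, of all genes. The summed level of the list ranged over 456 to 627 FPKM in sham mice and over 691 to 1084 FPKM in AAN mice. Of the other actins and tropomyosins, 4 of the 5 tested were called higher: Actb (1.94 ± 0.25, adjusted p = 4.72e-05), Tpm3, Tpm4 (2.76 ± 0.26, adjusted p = 3.25e-06) and Acta1, which was listed at 0 in all sham mice and so was tested through the AAN mice alone. Tpm3 was not called with the median of ratios (0.59, adjusted p = 0.150) or quantile normalization (0.56, adjusted p = 0.162). Actg1, cytoplasmic γ-actin, had the smallest change (0.42 ± 0.28, adjusted p = 0.202).

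Of 12 regulators on the SRF axis, 7 were called higher and 0 lower, against 35.8% and 3.43% of all genes, with a median log2 change of 1.67 against 0.75. Srf itself averaged 5.52 FPKM (SD 2.10, n = 4) in sham mice against 9.60 FPKM (SD 1.93, n = 6) in AAN mice. It stayed under the 2-fold limit (change 0.83 ± 0.24, limma, adjusted p = 0.0101). The change of Srf was 0.08 (adjusted p = 0.747) with the median of ratios and 0.13 (adjusted p = 0.533) with quantile normalization. The genes of the coactivators MRTF-A and MRTF-B both rose, Mrtfa by 1.84 ± 0.20 on the log2 scale (adjusted p = 1.29e-05) from 1.19 to 4.37 FPKM and Mrtfb by 1.70 ± 0.34 (adjusted p = 0.00108) from 0.967 to 3.03 FPKM. With quantile normalization neither was called, at 0.83 (adjusted p = 0.000421) for Mrtfa and 0.63 (adjusted p = 0.0907) for Mrtfb. Klf4, a repressor of the smooth muscle programme, rose by 2.38 ± 0.27 (adjusted p = 1.74e-05) from 1.08 to 6.02 FPKM. Klf5, a growth-linked factor of the same family, had the largest change (2.92 ± 0.42, adjusted p = 0.000102), and the GTPase gene Rhoa, the most abundant of the list, the smallest (0.43 ± 0.20, adjusted p = 0.0832). After rescaling, 6 of the 12 were higher by the median of ratios (18.8% of all genes) and 4 by quantile normalization (14.4% of all genes), and 0 were lower by either. The immediate early genes that SRF drives, with its other partners, were called higher in 8 of 8 cases under all 3 scalings, from Fosb (1.98 ± 0.35, adjusted p = 0.000432) to Egr2 (4.74 ± 0.33, adjusted p = 4.36e-07). With a pseudocount of 1 the count was 6, and Fosb, Egr2 and Egr3 reached the mean of 0.1 FPKM through the AAN mice alone, which favours their calls. Ccn1, a matricellular gene and the most abundant of them, went from 16.0 to 81.0 FPKM.

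Markers of the cells that can hold the contractile genes were read beside them, and beside the 35.8% of all genes called higher and the 3.43% called lower. Of the 14 fibroblast and myofibroblast markers (matrix genes with Vim, Pdgfra, Fap and Thy1), 14 were called higher with a median log2 change of 3.23, from Fap (1.47 ± 0.32, adjusted p = 0.00203) to Timp1 (8.39 ± 0.60, adjusted p = 5.19e-07). The count was 10 with a pseudocount of 1 and 13 with quantile normalization, and Postn, Lum, Fap, Cthrc1 and Timp1 reached the mean of 0.1 FPKM through the AAN mice alone, which favours their calls. The summed level of all 14 was 18.9 to 27.2 FPKM in sham mice and 187 to 484 FPKM in AAN mice, led by Col1a1, which went from 2.75 to 63.4 FPKM (log2 change 4.41 ± 0.26, adjusted p = 1.77e-07). Of 8 pericyte and mural markers, 5 were called higher and 0 lower, from Pdgfrb (1.78 ± 0.19, adjusted p = 7.58e-06) down to Abcc9, a potassium channel subunit of pericytes (-0.42 ± 0.32, adjusted p = 0.277). By the median of ratios 1 of the 8 was higher and 1 lower, against 18.8% and 10.7% of all genes. By quantile normalization 1 was higher and 2 lower, against 14.4% and 12.1% of all genes. The renin gene Ren1, the most abundant of them, averaged 73.0 FPKM (SD 43.1, n = 4) in sham mice against 60.1 FPKM (SD 30.2, n = 6) in AAN mice. Of 5 mesangial markers 3 were called higher, from Serpine2 (3.26 ± 0.28, adjusted p = 1.71e-06) to the angiotensin receptor gene Agtr1a, the most abundant, at -0.10 ± 0.20 (adjusted p = 0.678). With the median of ratios and with quantile normalization 2 of the 5 were higher. Gata3, called at 1.03 (adjusted p = 0.000502) with the deposited values, was then at 0.29 (adjusted p = 0.257) and 0.14 (adjusted p = 0.612). Serpine2 is also made by fibroblasts, and Pdgfrb stands in both lists. Thy1 (mean 1.05 FPKM in sham and 49.8 in AAN mice) and Vim (5.88 and 54.1 FPKM) are also expressed by leukocytes. How far leukocytes add to the 14 fibroblast and myofibroblast markers was not tested.

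The counts that follow stand beside 35.8% of all genes called higher and 3.43% called lower. These shares were 18.8% and 10.7% with the median of ratios, and 14.4% and 12.1% with quantile normalization. Proximal tubule genes, which mark renal cortex, were abundant in sham mice, led by the phosphate transporter gene Slc34a1 at 2008 FPKM. In AAN mice Slc34a1 was at 674 FPKM, and 6 of the 8 proximal tubule markers were called lower and 0 higher, from Slc22a6 (-4.28 ± 0.67, adjusted p = 0.000186) to Slc5a12 (0.12 ± 0.41, adjusted p = 0.806). All 5 leukocyte markers were called higher, from Ptprc (3.96 ± 0.21, adjusted p = 1.26e-07) to Cd52 (4.91 ± 0.36, adjusted p = 6.14e-07), and their sum spanned 6.80 to 12.1 FPKM in sham mice against 127 to 408 FPKM in AAN mice. Of 8 endothelial markers, 1 was called higher, Erg (1.05 ± 0.27, adjusted p = 0.00503), and Kdr had the smallest change (-0.27 ± 0.30, adjusted p = 0.456). With the median of ratios none was higher and Kdr was called lower (-1.02), and with quantile normalization none was called, with Erg at -0.20 (adjusted p = 0.531). Their most abundant gene was Cdh5 at 8.37 and 14.2 FPKM. Of 5 podocyte markers 1 was called higher, Synpo (1.15 ± 0.35, adjusted p = 0.0139), and Podxl was the most abundant at 30.2 and 37.3 FPKM. Synpo was called under neither rescaling, at 0.48 with the median of ratios and -0.09 with quantile normalization. How far these cell types bear on the contractile genes was not tested.

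Markers of tissues next to the cortex that hold striated or smooth muscle were read as well, and their part in the contractile genes was not tested. The shares of all genes called were 35.8% higher and 3.43% lower. The striated muscle markers, 7 with a value, summed to 0.646 to 1.48 FPKM in sham mice and 1.12 to 2.24 FPKM in AAN mice, with Mylpf as the most abundant at 0.734 and 0.751 FPKM, close to the levels of Cnn1 and Lmod1. Of the 4 tested, Tnni2, fast troponin I, was called higher (2.04 ± 0.31, adjusted p = 0.000147), having reached the mean of 0.1 FPKM through the AAN mice alone. Actn3 had the smallest change (-0.44 ± 0.32, adjusted p = 0.253). With quantile normalization 1 of the 4 was higher, and Actn3 (-1.57, limma, adjusted p = 0.00126) and Mylpf (-1.15, adjusted p = 0.00700) were called lower. There 14.4% of all genes were higher and 12.1% lower. With a pseudocount of 1 none of the 4 was called. Ckm and Tnnt3, not tested, were listed at 0 in all sham mice. Of 7 urothelial markers of the renal pelvis, whose wall holds smooth muscle, 5 were tested and only Krt20 was called higher (6.19 ± 0.42, adjusted p = 3.54e-07). Krt20 reached 16.6 FPKM of a summed 17.9 FPKM in AAN mice, and the uroplakin genes that define urothelium had means of at most 0.684 FPKM. Upk2 had the smallest change (0.52 ± 0.36, adjusted p = 0.227). Of the adipose markers with a value, Adipoq and Plin1 were near 0, and the 2 tested were called higher, Fabp4 (1.31 ± 0.25, adjusted p = 0.000691), which endothelium also expresses, from 4.88 to 11.9 FPKM, and Cfd (1.38 ± 0.49, adjusted p = 0.0285), which reached the mean of 0.1 FPKM through the AAN mice alone. With the median of ratios and with quantile normalization 0 of these 2 were called, with Fabp4 at 0.56 and 0.61.

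**Figure D5:**
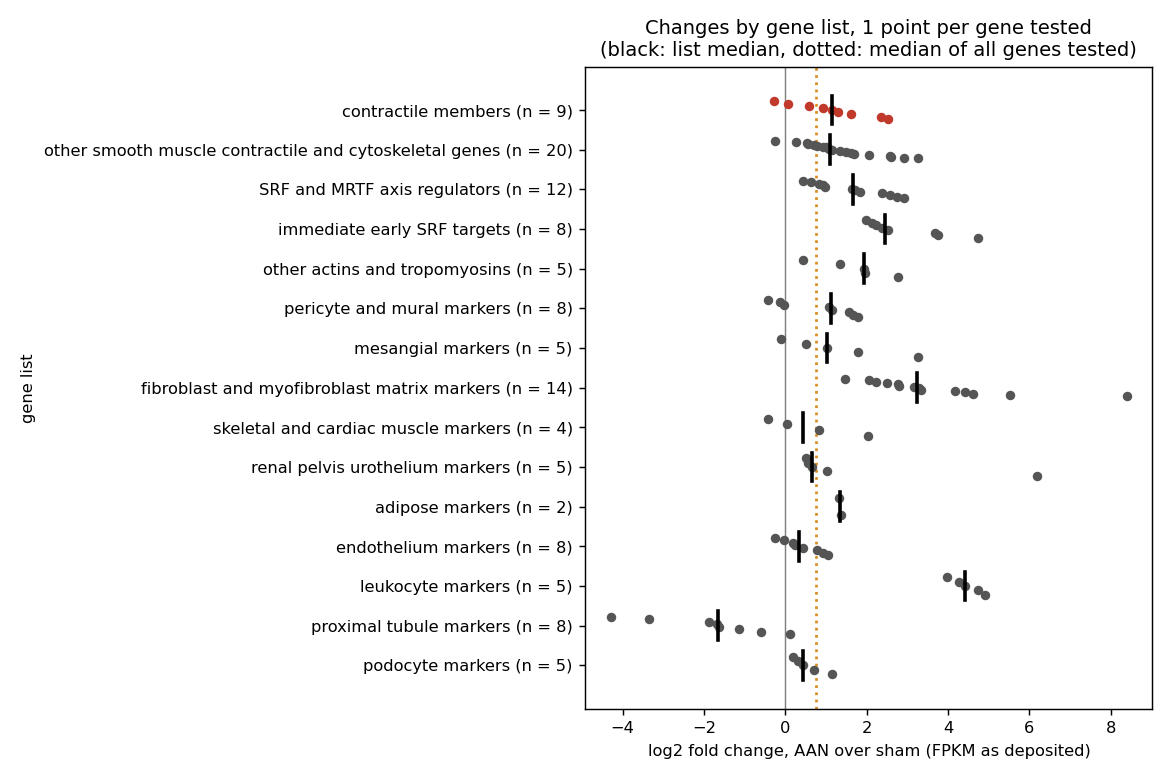
Log2 change in AAN over sham of every gene tested in each list, with 1 point per gene, a black bar for the list's median and a dotted line for the median of all genes tested (0.75). The contractile members in red spread from -0.27 to 2.54 around a median of 1.15, below the fibroblast and myofibroblast markers at 3.23 and the immediate early genes at 2.46.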

How the data were processed

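Renal cortex RNA of 4 sham and 6 AAN mice was sequenced by the authors on a HiSeq Xten with paired ends. The authors mapped the reads with Hisat2 2.0.4 to GRCm38 and computed the deposited FPKM values with Stringtie 1.3.0, 1 value per gene and mouse, with no further scaling named. The authors used edgeR, a test for counts, and limma 3.58.1 (R 4.3.3, trend and robust) on log2(FPKM + 0.1) takes its place here, at the same limits. Symbols for 21650 of 21792 genes came from GENCODE, and promoters from RefSeq. Depths were recovered from genes with 1 transcript, whose values under 0.3 FPKM came to whole fragments within 0.05 for 94.7% to 96.9%, against 9.74% to 11.8% in genes with several transcripts, so fragment numbers of those are upper limits and cover counting error only. The members, the 14 further lists and the pairs were chosen with earlier results of these data known. All members are named, and of each list the genes with the largest and smallest change, the most abundant gene and the genes of the pairs, with Srf, Mrtfa, Mrtfb and Klf4, of which 1 gene is not reported here. The other list members named here were chosen after their values were seen. The listed Cyr61 is named Ccn1 in the annotation, and Myh1, Myh4 and Lep were not analysed here. Alternatives were other pseudocounts (1, 0.01), a filter at 1 FPKM or none, 3 rescalings, eBayes without trend or robust, no fold limit, each mouse left out, and mice with B tags alone. The fit was tested on simulated data with changes planted in both directions and no shift common to all genes. It found 79 of 87 planted log2 changes of size 2 and 90 of 94 of size 3, with 3 false calls. Lacking a common shift, the simulation cannot show how the scaling between mice bears on the calls. P-values set the difference between the groups against the variation between these mice.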

Additional observations from a re-analysis of the deposited data

Results flagged for a closer look

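In the 36 sets of values examined, of the 10 members and the 8 within-mouse differences in each group, 3 held a mouse that stood far from the others by Dixon's 95% limit, where chance gives about 1.8. In sham B636, Acta2 minus Actb was -1.58 on the log2 scale, against -2.49 to -2.37 in the other sham mice. In AAN B666, Actg2 was at 0.745 FPKM, against 0.0725 to 0.318 FPKM in the other AAN mice. In AAN B614, Myocd was at 0.0466 FPKM, against 0.00607 to 0.0197 FPKM in the others, all of them a few fragments at most.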

How the results depend on the processing

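The count of genes higher in AAN, 6126, was 2909 with a pseudocount of 1, 4025 when means under 1 FPKM were dropped, 3193 with the median of ratios, 2487 with quantile normalization and 9482 with no fold limit. The count of genes lower, 588, was 1810, 2085 and 1027 with the last 3 of these. Members higher went from 5 to 3 with a pseudocount of 1 or the median of ratios and to 2 with quantile normalization, and members lower from 0 to 1 and 2 with these rescalings. Acta2 minus Actg2 turned to 0.78 with a pseudocount of 1, and was -2.38 with 0.01 and -0.95 with the median of ratios. It is not read as a change, because Actg2 had at most 1.77 fragments in any sham mouse. Acta2 minus Pdgfrb was -0.44 with a pseudocount of 1 (exact p = 0.1) and -0.60 in mice with B tags (exact p = 0.0536), where Acta2 minus Myh11 was 1.54 (exact p = 0.0714). Lmod1 was -0.0054 with a pseudocount of 1, -0.58 with the median of ratios, -1.15 with quantile normalization, -0.15 without sham B634, -0.015 without AAN A483, between -0.17 (without sham H249) and 0.29 (without sham B636) over all mice left out, and -0.24 in mice with B tags. Cnn1 was -0.065 with the median of ratios and -0.66 with quantile normalization. Apart from the direct effect of each setting, the cause was not tested. With each mouse left out in turn, genes higher numbered 5488 to 6684, genes lower 524 to 703 and members higher 4 to 6, while Acta2 minus Myh11 was 1.24 to 1.67, Acta2 minus Actg2 -0.61 to -0.21 and Acta2 minus Pdgfrb -0.76 to -0.40. In mice with B tags, 3 sham and 5 AAN, the same 5 members were called higher. No paired analysis was possible because the groups share no mouse in the labels. Depth limits Actg2 and Myocd most, and without the filter Myocd had a change of 0.17 ± 0.12 (adjusted p = 0.267).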
